A study of Mus musculus with 6 samples.

Results

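The 41 genes described here encode cyclins and their kinases, the proteins that prepare and copy DNA, and the proteins that carry out and check mitosis. They were chosen by name from these roles, with no minimum level, and all 41 were found among the 22173 genes listed for the retina libraries. RNA of retina was sequenced at postnatal day 17 from wild-type C57BL/6J mice. The 3 Control libraries came from pups kept in room air from day 7 to day 17. The 3 libraries of oxygen-induced retinopathy (OIR) came from pups that breathed 75% oxygen from day 7 to day 12 and room air from day 12 to day 17. The comparison asks which genes differ at the age when this model forms abnormal retinal vessels. Nothing in the labels ties a library to its own animal or to a pool of retinas, so each p-value rests on the spread among libraries, which may be technical.

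A cell commits to division when D-type cyclins with Cdk4 or Cdk6 phosphorylate the retinoblastoma protein and release E2F transcription factors. E2F factors then switch on cyclin E and the genes of DNA replication, among them the MCM helicase and the enzymes of nucleotide synthesis. Cyclins A and B with Cdk1 drive the later steps, and the spindle, kinetochore and checkpoint genes act in mitosis. Retinal neurons have left the cell cycle by the second postnatal week, while endothelial cells, pericytes, microglia and other glia can still divide. In such bulk samples more dividing cells and more RNA per cell cannot be told apart.

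Each library held 35615501 to 38025623 reads. The deposited values are reads per kilobase of gene and library size (RPKM), and the whole read number behind each value was recovered from it. Rod genes took 4.66% to 5.96% of the reads in the 6 libraries, and all 8 rod markers were above 0 in each. Lens genes were unequal between libraries. The 23 lens markers made up 6.38% of Control 3 and 0.554% of OIR 2, against 0.0149% to 0.0582% in the other 4 libraries. Foxe3, a transcription factor gene of the lens epithelium, had 126 reads in Control 3 and none elsewhere. The counts of calls, and several but not all of the results that rest on Control 3 or OIR 2, are therefore given with and without them.

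The cell cycle genes differed widely in level. Per length, Pcna had the highest mean in both groups, at 44.2 ± 4.38 RPKM for Control and 45.3 ± 2.65 RPKM for OIR (mean ± SD over 3 libraries per group, as throughout). The lowest means were those of Cenpf, at 0.0403 ± 0.0165 RPKM for Control and 0.0778 ± 0.0217 RPKM for OIR, and 15 of the 41 genes were below 1 RPKM in every library. The mean was higher in OIR than in Control for 38 genes, and Ccne1, Ccne2 and Aurka were the other 3. In 20 of the 41 genes all 3 OIR values lay above all 3 Control values, and in none did they lie below. Over the 17953 genes above 0 in any library, 20.5% had all OIR values above Control and 12.2% had them below. With 3 libraries against 3, the smallest two-sided p of an exact permutation test of a single gene is 0.1.

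**Figure D1:**
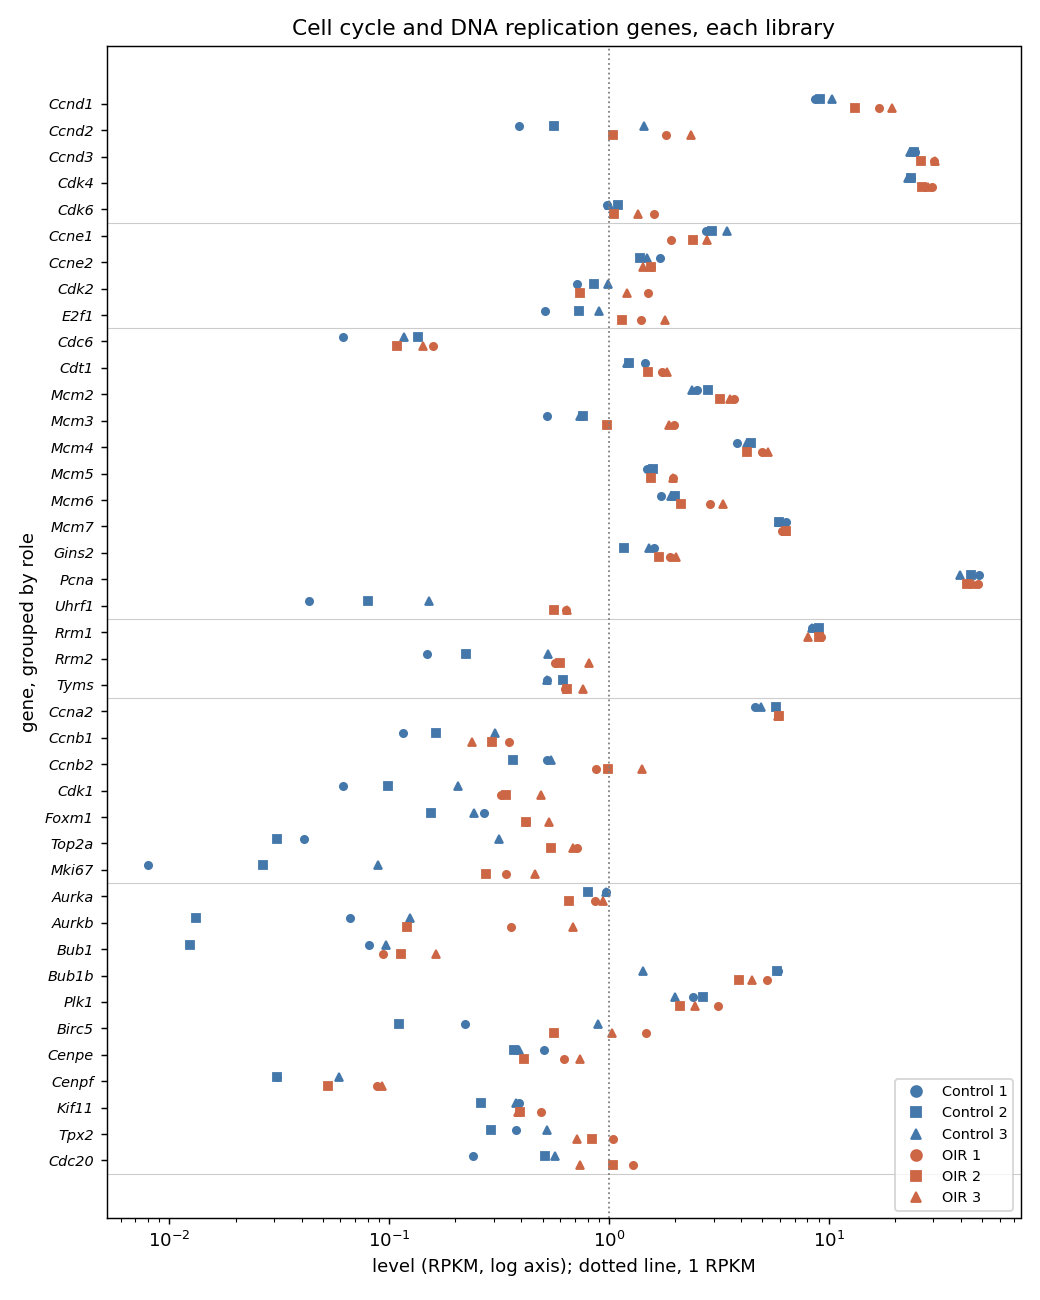
Level of each of the 41 genes in each library, in RPKM on a log axis, with genes grouped by role from D-type cyclins at the top to mitosis genes at the bottom. Control libraries are blue, OIR libraries are red, and marker shapes give the replicate number. The genes near 1 RPKM and below show the widest gaps between groups, and Control 3 (blue triangle) is the highest Control in 19 of the 41.

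Differences between groups were tested in 2 ways. The first test, limma on log2(RPKM + 1), covered the 20 members with at least 1 RPKM in at least 3 libraries. It called 6 members higher in OIR and none lower, at an adjusted p under 0.05. Of the 6, E2f1 passed the minimum of 1 RPKM only through its OIR values, and the other 5 were above 1 RPKM in all 6 libraries. Over all 12112 genes in this test, 11.6% were higher and 7.22% lower. Higher genes made up 61.7% of these calls, and 49.4% (1283 higher, 1312 lower) with median-of-ratios scaling, under which 5 members were higher and none lower. At an unadjusted p under 0.05 there were 10 of the 20 members, of which 1, Ccne1, was lower in OIR, beside 4122 of all 12112 genes. The second test, limma-voom on the recovered reads, covered the 40 members with at least 10 reads in at least 3 libraries and left out Aurkb. It called 15 members higher and none lower, where 11.3% of 15038 genes were higher and 6.98% lower. All 6 calls of the first test were among these 15. The median log2 fold change of the 40 members was 0.43 on the scale of the reads, beside 0.04 over all genes in that test. For the 20 members of the first test it was 0.19, beside 0.03 over all genes, on the log2(RPKM + 1) scale.

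The number of calls changed when single libraries were left out. By limma-voom it was 3 without Control 1, 4 without Control 2, 5 without OIR 1 and 7 without OIR 3. It was 11 without Control 3, 19 without OIR 2, and 23 without both of these lens-rich libraries. By limma it was 1 without Control 1, OIR 1 or OIR 3, 3 without Control 2, and 8 without both lens-rich libraries. The 8 members called in addition without the lens-rich pair were Ccnd2, Cdk6, Cdk2, Mcm4, Rrm2, Birc5, Cenpe and Cenpf, each higher in OIR. Ccnd1 was called in all 6 fits that left out 1 library in both tests. Mki67 and Uhrf1 were called in all 6 such limma-voom fits. The number of calls over all genes moved as well. By limma, 1407 genes were higher with all 6 libraries, and 513 to 1754 when 1 was left out. For limma-voom the counts over all genes in these fits are not given here.

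**Figure D2:**
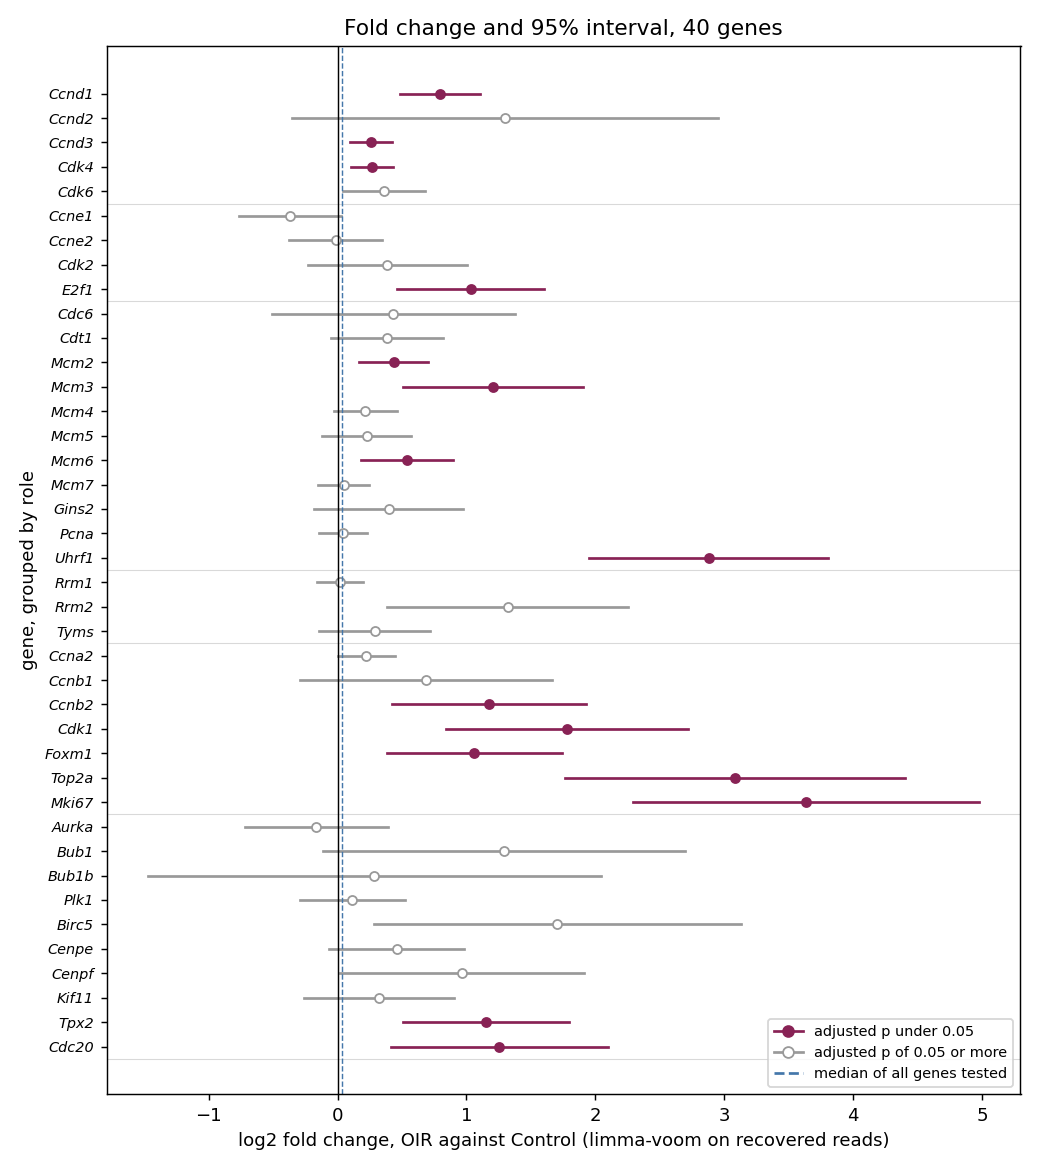
Log2 fold change of OIR against Control with its 95% interval for the 40 genes covered by limma-voom, grouped by role, with called genes filled. The 15 called genes all lie to the right of 0, Mki67, Top2a and Uhrf1 farthest, while Pcna, Rrm1 and Mcm7 have short intervals around 0.

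Among the D-type cyclins and their kinases, Ccnd1, Ccnd3 and Cdk4 rose and Ccnd2 and Cdk6 did not pass. Ccnd1 encodes cyclin D1, the D-type cyclin of retinal progenitors and Müller glia. It was at 8.65, 9.17 and 10.4 RPKM in Control 1 to 3 and at 16.9, 13.1 and 19.3 RPKM in OIR 1 to 3. The groups did not overlap, and the lowest OIR library was OIR 2. The log2 fold change of Ccnd1 was 0.73 (standard error 0.126, limma adjusted p 0.00661), from 1213 to 2770 reads per library. Ccnd3, the gene of cyclin D3, was at 24.7, 24.4 and 23.4 RPKM in Control and at 30.0, 26.4 and 30.6 RPKM in OIR. Its log2 fold change was 0.25 (standard error 0.0715, limma adjusted p 0.0337). Cdk4, the gene of the kinase that D-type cyclins activate, was at 23.7, 23.6 and 23.0 RPKM in Control and at 29.7, 26.6 and 28.4 RPKM in OIR. For Cdk4 the log2 fold change was 0.26 (standard error 0.0647, limma adjusted p 0.0216). Both of these genes were higher in all 3 OIR libraries, by a ratio of the group means of 1.20, smaller than the 1.75 of Ccnd1.

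The calls of Ccnd3 and Cdk4 depended on most of the libraries. By limma, Ccnd3 lost its call when any 1 library other than OIR 2 was left out (adjusted p 0.0613 to 0.143). Cdk4 lost its call without Control 1, Control 2, OIR 1 or OIR 3, at 0.0573 to 0.112. Ccnd2, the gene of cyclin D2, had 119, 172 and 422 reads in Control and 557, 315 and 744 reads in OIR. The groups overlapped in that the value of Control 3 exceeded that of OIR 2, the library pair with lens reads, and the adjusted p was 0.171. The ratio of the group means of Ccnd2 was 2.20, above that of Ccnd1. Its log2 fold change was 0.63 on the log2(RPKM + 1) scale, which understates changes near 1 RPKM, 1.15 with a pseudocount of 0.1, and 1.30 by limma-voom (adjusted p 0.235). Without these 2 libraries it was 1.07 by limma (adjusted p 0.000477). Without Control 3 alone the adjusted p of Ccnd2 was 0.0333. Cdk6, the gene of the second kinase of D-type cyclins, was at 0.978 to 1.11 RPKM across Controls and 1.05 to 1.61 RPKM across OIR libraries, with overlapping groups and an adjusted p of 0.203.

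E2f1 rose, while the cyclin E genes and Cdk2 did not pass. E2f1 encodes the transcription factor that activates many replication genes. It had 59, 84 and 100 reads in Control 1 to 3 and 160, 130 and 213 reads in OIR 1 to 3. Every OIR library was above every Control library, and the mean rose from 0.716 ± 0.198 to 1.45 ± 0.334 RPKM, a ratio of 2.02. The limma-voom log2 fold change of E2f1 was 1.03 (standard error 0.263, adjusted p 0.0184). In the limma test E2f1 entered only through its OIR values, since all Control values were below 1 RPKM, and its adjusted p there was 0.0179. The limma call was lost without Control 1, OIR 1 or OIR 3 (adjusted p 0.0617 to 0.0750). By limma-voom it also was lost without Control 2, with adjusted p from 0.0516 to 0.0906 over these 4 libraries.

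Ccne1, the gene of cyclin E1, was at 2.78, 2.94 and 3.46 RPKM in Control and at 1.92, 2.42 and 2.80 RPKM in OIR. OIR 3 overlapped with Control 1, and the log2 fold change of -0.27 did not pass (limma adjusted p 0.112). Ccne2, which encodes cyclin E2, was at 1.53 ± 0.162 RPKM (Control) and 1.51 ± 0.0732 RPKM (OIR), with a 95% interval of the log2 fold change from -0.20 to 0.18. Cdk2, the gene of the kinase partner of cyclin E, had 71, 84 and 94 reads in Control and 148, 72 and 122 reads in OIR. OIR 2 was at the level of Control, and the limma-voom adjusted p of Cdk2 was 0.377.

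Of the 11 replication licensing and fork genes, limma tested 8 and called Mcm2 and Mcm6, and limma-voom called Mcm3 and Uhrf1 as well. The MCM genes encode the 6 subunits of the helicase ring that opens DNA ahead of the fork. Mcm2 was at 2.52, 2.82 and 2.40 RPKM in Control and at 3.70, 3.22 and 3.55 RPKM in OIR. The groups of Mcm2 did not overlap, and the log2 fold change was 0.33 (standard error 0.0857, limma adjusted p 0.0254). Mcm6 was at 1.74, 2.0 and 1.93 RPKM in Control and at 2.87, 2.14 and 3.32 RPKM in OIR. OIR 2 lay just above the Control libraries, and the log2 fold change of Mcm6 was 0.38 (standard error 0.115, limma adjusted p 0.0442). Mcm3 had 59, 86 and 80 reads in Control and 221, 109 and 216 reads in OIR. Its limma-voom log2 fold change was 1.21 (standard error 0.318, adjusted p 0.0234), and OIR 2 was again the lowest OIR library.

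These subunits did not move by the same amount. The ratio of the group means was 2.38 for Mcm3, 1.47 for Mcm6 and 1.35 for Mcm2, and it was 1.17 for Mcm5, 1.16 for Mcm4 and 1.03 for Mcm7. Mcm4, Mcm5 and Mcm7 had overlapping groups and did not pass, with limma adjusted p of 0.199, 0.298 and 0.721. The 95% interval of the log2 fold change of Mcm7 ran from -0.12 to 0.20. The differences between subunits were not tested. The limma call of Mcm2 was lost without Control 1, Control 3, OIR 1 or OIR 3 (adjusted p 0.0566 to 0.112). That of Mcm6 was kept without OIR 2 and lost without any of the other 5 (0.0807 to 0.163), as it was with median-of-ratios scaling, at 0.0611. The limma-voom call of Mcm3 was lost when any 1 library other than OIR 2 was left out, at 0.0594 to 0.101.

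Uhrf1 encodes a chromatin protein that recruits the maintenance DNA methyltransferase to newly copied DNA. It had 6, 11 and 20 reads in Control 1 to 3 and 88, 77 and 91 reads in OIR 1 to 3. All 3 OIR libraries lay close together and far above Control, and the mean went from 0.0914 ± 0.0547 to 0.616 ± 0.0442 RPKM, a ratio of 6.75. The limma-voom log2 fold change of Uhrf1 was 2.88 (standard error 0.429, adjusted p 0.00158). Without both lens-rich libraries, which were its highest Control and its lowest OIR library, it was 3.37 (adjusted p 0.000178).

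The other 4 genes of this group did not pass. Pcna, the gene of the sliding clamp of DNA polymerase, was at 48.3, 44.6 and 39.6 RPKM in Control and at 47.9, 42.6 and 45.5 RPKM in OIR. The groups overlapped, and the 95% interval of its log2 fold change ran from -0.14 to 0.22. Cdt1, a licensing factor that loads the helicase, was at 1.30 ± 0.141 RPKM (Control) and 1.70 ± 0.169 RPKM (OIR). Its groups did not overlap, and its limma adjusted p was 0.104. Gins2, the gene of a subunit of the active helicase, was at 1.43 ± 0.230 and 1.87 ± 0.174 RPKM (adjusted p 0.108). Cdc6, which loads the helicase with Cdt1, had only 11 to 24 reads in Control and 19 to 28 in OIR (limma-voom adjusted p 0.532).

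**Figure D3:**
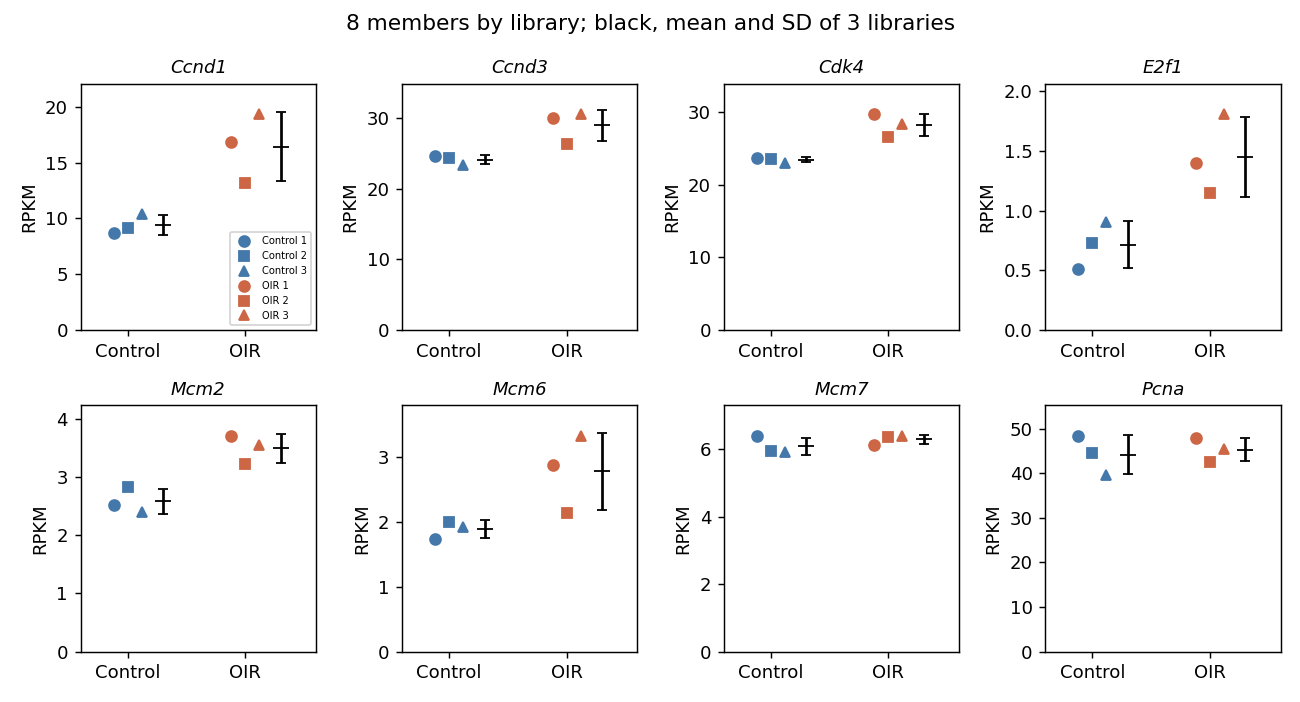
Level of 8 members in each library, in RPKM on axes that start at 0, with the mean and SD of the 3 libraries of a group in black. Ccnd1, Ccnd3, Cdk4, E2f1, Mcm2 and Mcm6, the 6 genes called by limma, have OIR libraries above Control, while Mcm7 and Pcna overlap.

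Among the genes of nucleotide supply none passed, 0 of 3 by limma-voom. Rrm1 and Rrm2 encode the large and small subunits of ribonucleotide reductase, which makes deoxynucleotides. Rrm1 was at 8.62 ± 0.377 RPKM (Control) and 8.76 ± 0.607 RPKM (OIR). Rrm2 had 12, 18 and 41 reads in Control 1 to 3 and 46, 48 and 67 reads in OIR 1 to 3. Control 3 came close to the OIR libraries, and the limma-voom log2 fold change of Rrm2 was 1.32 with an adjusted p of 0.0510. It was 1.81 without Control 3 (adjusted p 0.0224) and 1.38 without OIR 2 (adjusted p 0.0403). Tyms, the gene of thymidylate synthase, was at 0.554 ± 0.0533 RPKM (Control) and 0.677 ± 0.0716 RPKM (OIR), with no overlap and an adjusted p of 0.342. At an unadjusted p under 0.05, Rrm2 was the 1 gene of the 3, beside 4979 of all 15038 genes in that test.

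Mki67 had the highest ratio of group means of all 41 genes. It belongs to a list of 7 genes with the late cyclins, Cdk1, Foxm1 and proliferation markers. Of these 7 genes, limma-voom called Mki67, Top2a, Cdk1, Ccnb2 and Foxm1 higher, and not Ccna2 or Ccnb1. These are 5 of 7, beside 11.3% of all genes in that test. In the list of mitosis genes described below it called 2 of 10. Mki67 encodes Ki-67, a protein of the surface of mitotic chromosomes that is used as a marker of cycling cells. It had 3, 10 and 32 reads in Control 1 to 3 and 127, 102 and 176 reads in OIR 1 to 3. The exact Poisson 95% interval of the 3 reads in Control 1 runs from 0.619 to 8.77 reads, and it covers counting error only. The mean level of Mki67 went from 0.0413 ± 0.0425 to 0.359 ± 0.0927 RPKM, a ratio of 8.69. All 3 OIR libraries lay above Control 3, the highest Control. The limma-voom log2 fold change was 3.64 (standard error 0.610, adjusted p 0.00350). It was 2.82 without Control 1, the library with 3 reads, and 4.45 without Control 3, with adjusted p of 0.0130 and 0.00478.

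Top2a encodes the topoisomerase that untangles copied chromosomes. It had 8, 6 and 59 reads in Control 1 to 3 and 139, 105 and 136 reads in OIR 1 to 3. Control 3 stood well apart from the other Controls and still below OIR. The limma-voom log2 fold change of Top2a was 3.08 (standard error 0.595, adjusted p 0.00738). It was 2.67 without Control 1, with an adjusted p of 0.0642, 2.48 without Control 2, with 0.0428, and 4.08 without Control 3, with 0.00282.

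Cdk1, the gene of the kinase that starts mitosis, had 10, 16 and 32 reads in Control and 52, 54 and 81 reads in OIR. Its log2 fold change was 1.78 (standard error 0.433, limma-voom adjusted p 0.0153), and the call was lost without Control 1 or Control 2, at 0.0762 and 0.0549. Ccnb2, the gene of cyclin B2, had 30, 21 and 30 reads in Control and 50, 56 and 83 reads in OIR, with a log2 fold change of 1.17 (adjusted p 0.0340). Foxm1, the gene of a transcription factor of mitosis genes, had 44, 25 and 38 reads in Control and 68, 67 and 89 reads in OIR, with a log2 fold change of 1.06 (adjusted p 0.0339). The groups of these 3 genes did not overlap. The calls of Ccnb2 and Foxm1 were lost when any 1 library other than OIR 2 was left out (Ccnb2 adjusted p 0.0520 to 0.124, Foxm1 adjusted p 0.0523 to 0.138).

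Ccna2, the gene of cyclin A2, had 579 to 720 reads in Control and 736 to 757 in OIR. It was at 5.09 ± 0.591 RPKM (Control) and 5.92 ± 0.0369 RPKM (OIR), and every OIR library was above every Control library. The ratio of 1.16 did not pass (limma adjusted p 0.145). Ccnb1, the gene of cyclin B1, had 10, 14 and 25 reads in Control and 30, 25 and 21 reads in OIR, with overlapping groups and a limma-voom adjusted p of 0.318. In 5 of these 7 genes Control 3 was the highest Control.

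Among Controls, both Mki67 and Top2a were highest in Control 3, where lens markers took 6.38% of reads. The part of lens cells in these Control values was not tested. Without both lens-rich libraries the limma-voom log2 fold change of Mki67 was 4.62 (adjusted p 4.24e-05) and that of Top2a 4.20 (adjusted p 2.28e-05). Both were above the values with all 6 libraries. For both genes Control 3 was the highest Control and OIR 2 the lowest OIR library. Leaving them out therefore had to raise the fold change. For Cdk1, with Control 3 also the highest Control, it was 2.30 (adjusted p 0.00281).

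Among the 11 genes of mitotic kinases, spindle, checkpoint and kinetochore, limma tested 2 and called none (0 at an unadjusted p under 0.05), and limma-voom tested 10 and called Tpx2 and Cdc20. Tpx2 encodes a spindle assembly factor that activates Aurora A kinase. It had 43, 33 and 57 reads in Control and 119, 94 and 84 reads in OIR, with no overlap. The limma-voom log2 fold change of Tpx2 was 1.15 (standard error 0.298, adjusted p 0.02). Cdc20, which activates the anaphase-promoting complex, had 16, 34 and 36 reads in Control and 85, 68 and 50 reads in OIR. Its log2 fold change was 1.26 (standard error 0.388, adjusted p 0.0413). Both calls were lost without Control 1, Control 2 or OIR 1, with adjusted p of 0.0724 to 0.0885 for Tpx2 and 0.0741 to 0.173 for Cdc20.

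Birc5, the gene of survivin, and Aurkb, the gene of Aurora B kinase, belong to the same chromosomal passenger complex. Birc5 had 8, 4 and 31 reads in Control and 53, 20 and 38 reads in OIR. The value of Control 3 exceeded that of OIR 2, and the limma-voom log2 fold change of 1.70 did not pass (adjusted p 0.0901). It was 2.49 without Control 3 (adjusted p 0.0342) and 2.86 without both lens-rich libraries (adjusted p 0.00269), and without OIR 2 the adjusted p was 0.0212. Aurkb had 5, 1 and 9 reads in Control and 27, 9 and 53 reads in OIR, so OIR 2 and Control 3 were level in reads. Aurkb had too few reads to be tested, and the interval of its 1 read in Control 2 runs from 0.0253 to 5.57 reads.

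Bub1b, the gene of the checkpoint protein BubR1, stood out for a single library. It had 809, 795 and 187 reads in Control 1 to 3 and 715, 527 and 626 reads in OIR 1 to 3. Control 3 was at 1.43 RPKM, against 5.91 and 5.83 RPKM in the other Controls and 3.91 to 5.26 RPKM in OIR. The log2 fold change of Bub1b was 0.19 with a 95% interval from -1.15 to 1.52 (limma adjusted p 0.829), and without Control 3 it was -0.32 (adjusted p 0.0754). Control 3 is also the library richest in lens reads, and their part in this value was not tested. Its partner Bub1, which encodes a related checkpoint kinase, had 13, 2 and 15 reads in Control and 15, 18 and 27 reads in OIR (limma-voom adjusted p 0.185).

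The remaining 5 genes of mitosis had overlapping groups and did not pass. Plk1, the gene of Polo-like kinase 1, was at 2.36 ± 0.334 RPKM (Control) and 2.58 ± 0.530 RPKM (OIR). Aurka, which encodes Aurora A kinase, was at 0.915 ± 0.0968 and 0.819 ± 0.146 RPKM (limma-voom adjusted p 0.696). Cenpe, the gene of a kinetochore motor, had 107 to 147 reads in Control and 118 to 219 in OIR (adjusted p 0.210). Cenpf, a kinetochore protein gene, had 13 to 24 and 22 to 40 reads (adjusted p 0.143). Kif11, the gene of the motor that separates the spindle poles, had 47 to 70 and 70 to 88 reads (adjusted p 0.443).

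**Figure D4:**
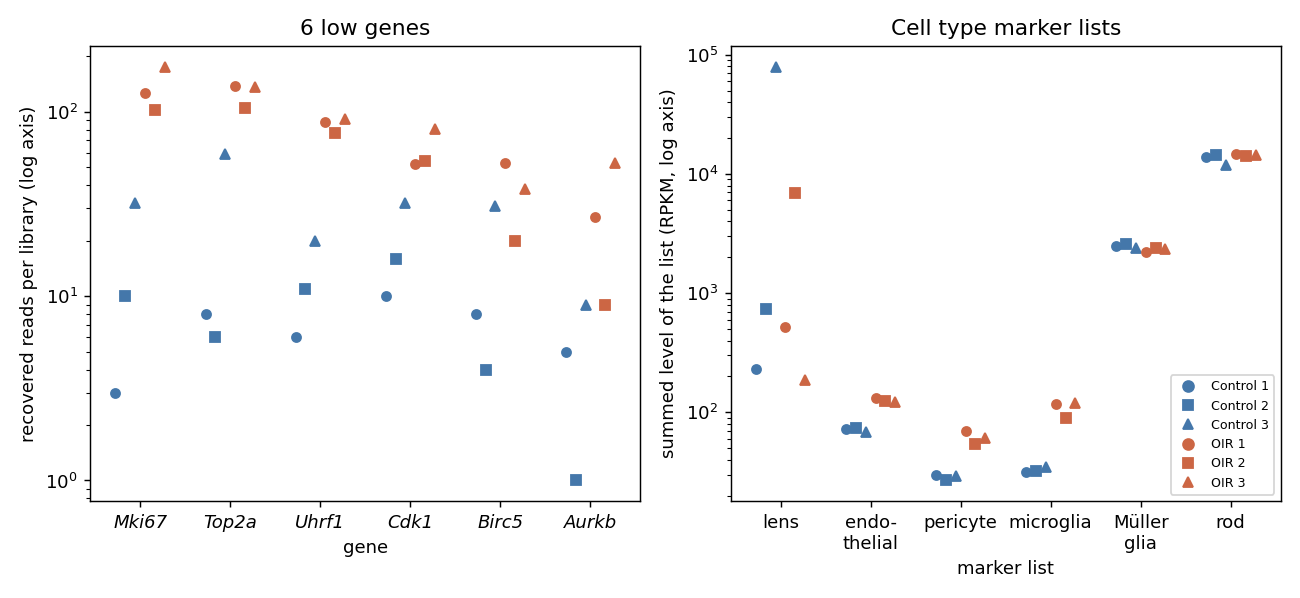
Left, recovered reads of 6 low members in each library on a log axis; right, summed level of 6 marker lists in each library, in RPKM on a log axis. Mki67, Top2a, Uhrf1 and Cdk1 have all OIR libraries above Control, Birc5 and Aurkb do not, and Control 3 and OIR 2 carry the most lens signal.

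Other genes of the pathway were taken from 4 further lists with 105 genes. By limma, 6 of 56 tested genes rose and 2 fell, and by limma-voom 12 of 99 rose and 2 fell. The shares that rose were near those of all genes (11.6% by limma, 11.3% by limma-voom). The shares that fell were smaller than those of all genes (7.22% by limma, 6.98% by limma-voom). Of 40 other genes of DNA replication, limma tested 26, and Chaf1a rose and Rpa1 fell. Limma-voom tested 39 and also called Chaf1b, which encodes another CAF-1 subunit, higher, with 3, 6 and 8 reads in Control and 21, 20 and 21 reads in OIR (ratio of group means 3.57, adjusted p 0.0289). Chaf1a encodes a subunit of the chromatin assembly factor CAF-1, and its mean went from 3.43 ± 0.102 to 4.33 ± 0.282 RPKM (limma adjusted p 0.0396). Rpa1, the gene of a protein that binds single-stranded DNA, went from 65.1 ± 4.44 to 55.1 ± 3.14 RPKM (limma adjusted p 0.0442). Of 40 other mitosis genes, limma tested 12 and called Cenpa and Cks1b higher. Limma-voom tested 36 and called 6 others, Anln, Kif18b, Kif2c, Pbk, Prc1 and Ube2c, all with means below 1 RPKM in Control. Ube2c, the ubiquitin-conjugating enzyme gene of the anaphase-promoting complex, had a ratio of group means of 4.01, and Prc1, the gene of a spindle midzone protein, 2.36. Cenpa, which encodes the histone variant of centromeres, went from 1.04 ± 0.202 to 1.90 ± 0.467 RPKM (limma adjusted p 0.0197, limma-voom adjusted p 0.0577). Cks1b, a cofactor gene of cyclin-dependent kinases, went from 3.44 ± 0.244 to 4.44 ± 0.289 RPKM (limma adjusted p 0.0327, limma-voom adjusted p 0.227).

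Among 10 CDK inhibitors and pocket proteins, Cdkn1a and Cdkn2c rose in both tests and none fell. Cdkn1a encodes p21, an inhibitor of cyclin-dependent kinases. It was at 3.18, 2.98 and 2.90 RPKM in Control and at 8.73, 7.39 and 10.8 RPKM in OIR. The groups were far apart, with a log2 fold change of 1.30 (limma adjusted p 0.000124). Cdkn2c, which encodes the Cdk4 and Cdk6 inhibitor p18, went from 3.59 ± 0.309 to 5.80 ± 1.31 RPKM (limma adjusted p 0.0197). Of 15 other E2F, DREAM and MYB genes, limma called the repressor gene E2f6 higher, at 5.58 ± 0.394 and 9.0 ± 2.18 RPKM (adjusted p 0.0312). It called Lin52, a DREAM complex gene, lower, at 10.7 ± 0.866 and 8.33 ± 0.816 RPKM (adjusted p 0.0289). Limma-voom also called E2f8, the gene of an atypical repressor E2F, higher, with 6, 0 and 3 reads in Control and 12, 33 and 11 reads in OIR (adjusted p 0.0390). E2f8, Chaf1b and Kif18b had fewer than 10 reads in every Control library and entered limma-voom only through their OIR reads. The calls of Chaf1a, Rpa1, Cenpa, Cks1b, Cdkn2c, E2f6 and Lin52 were each lost without OIR 1 (adjusted p 0.0709 to 0.153), and each without 2 or more of the other libraries. The 8 genes called by limma-voom alone also each lost their call without OIR 1 (adjusted p 0.0533 to 0.148) and without at least 1 other library. Cdkn1a was called in all 6 limma fits that left out 1 library.

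Markers of several cell types moved with these genes. Of 12 endothelial markers, led by Kdr and Cldn5, 10 were higher by limma, and their summed level was 67.9 to 73.1 RPKM across Controls and 122.3 to 131.6 RPKM across OIR libraries. Of 8 pericyte markers, led by Rgs5 and Pdgfrb, limma tested 6 and called all 6 higher, with summed levels of 26.8 to 29.9 and 54.4 to 69.9 RPKM. Of 12 markers of microglia and macrophages, led by C1qb and C1qa, limma tested 10 and called 9 higher, with summed levels of 31.8 to 34.9 RPKM across Controls and 89.0 to 119.4 RPKM across OIR libraries. Of 5 astrocyte markers, led by Gfap and Aldh1l1, limma tested 4 and called 2 higher, and the 5 summed to 22.7 to 27.8 RPKM across Controls and 49.1 to 100.4 RPKM across OIR libraries. Of 10 Müller glia markers, led by Glul and Apoe, 3 were higher and 5 lower, and they summed to 2377 to 2566 RPKM across Controls and 2221 to 2393 RPKM across OIR libraries. Of 5 red blood cell genes, led by Hbb-bs and Hba-a1, limma tested 4 and called 4 higher, and the 5 summed to 47.3 to 55.8 RPKM across Controls and 84.2 to 158.0 RPKM across OIR libraries. The 6 markers of the pigment epithelium, led by Ttr and Pmel, had no call among 3 tested and summed to 40.4 to 49.1 and 35.1 to 40.2 RPKM. No marker of these 7 lists was at 0 in any library. OIR 2 had the lowest summed level among the OIR libraries for pericyte, microglia, astrocyte and red blood cell lists. For endothelial markers OIR 3 was lowest, at 122.3 RPKM against 123.6 RPKM in OIR 2. For Müller glia and pigment epithelium markers OIR 1 was lowest. OIR 2 was the lowest OIR library in 27 of the 41 cell cycle genes. The part of each cell type in the cell cycle values was not tested.

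Promoters are shown because several members rose together and these elements are those through which E2F factors and mitotic regulators are known to act. RefSeq promoters (GRCm38.p6) were found by symbol for 32 of the 41 members, and the 250 bases before each start were searched on both strands. E2F sites were searched as TTGGCGC or, with other central bases, as TTCGCGC; the remaining accepted forms of this motif were TTCCCGC and also, as the last, TTGCCGC. The CHR motifs, cell cycle homology elements bound by DREAM and MuvB complexes, were TTTGAA and TTCGAA, and CCAAT is the element of the factor NF-Y. Matches may overlap, and a stretch that matches on both strands counts for each of them. TTCGAA, which reads the same on both strands, counts only once per site. Where a gene has several starts, a match at any of them counts. At least 1 E2F motif was in 11 of the 32 promoters (34.4%), against 9.01% of the 27025 genes in the table. A CHR motif was in 9 (28.1%, against 19.6%) and CCAAT in 24 (75.0%, against 37.5%). Of the 9 members with a CHR motif, limma-voom called 6 higher, and of the 23 without one it called 6. Of the 11 with an E2F motif it called 4 higher, and of the 21 without one it called 8. E2f1 is among those without, but the 1 start listed for it lies past the start of its coding sequence, so its promoter was not searched. These shares are a description, with no test, and a match is not evidence of binding. Over all genes limma-voom called 11.3% higher. The called share among all genes with or without each motif was not computed, so the counts by motif have no background of their own.

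Printed here are the windows before the listed starts of the 5 members called by limma that have an entry. Those of Mki67, Top2a, Cdk1 and Uhrf1 were added after their values were seen. All 9 genes rose in at least 1 test. They range from Top2a, with 4 CHR and 6 CCAAT matches, to E2f1, Cdk4 and Ccnd3, with none in the window printed. Capitals mark the matches on either strand, and each sequence runs 5′ to 3′ toward the start listed for its gene. E2f1, with 1 start listed, lies at chr2:154569427-154569676 on the minus strand, with no match. Read in frame, this stretch encodes part of the E2F1 protein, so it lies within the gene, past its main start. No other E2f1 start was searched, so the lack of a match does not describe the promoter of E2f1. Cdk4 lies at chr10:127063285-127063534 on the plus strand, with no match. Mcm2 lies at chr6:88898781-88899030 on the minus strand, with 1 CHR and 1 CCAAT match. Ccnd3, for which the table has 2 starts and the first was used, lies at chr17:47504801-47505050 on the plus strand, with no match. Mcm6 lies at chr1:128359706-128359955 on the minus strand, with 4 E2F and 2 CCAAT matches, its E2F matches lying in 2 stretches that each match on both strands. Mki67 lies at chr7:135716380-135716629 on the minus strand, with 1 E2F, 2 CHR and 3 CCAAT matches. Top2a lies at chr11:99024190-99024439 on the minus strand, with 4 CHR and 6 CCAAT matches. Cdk1 lies at chr10:69352913-69353162 on the minus strand, with 2 E2F, 2 CHR and 3 CCAAT matches. Uhrf1, for which the table has 2 starts and the first was used, lies at chr17:56303087-56303336 on the plus strand, with 1 E2F and 1 CCAAT match.
E2f1: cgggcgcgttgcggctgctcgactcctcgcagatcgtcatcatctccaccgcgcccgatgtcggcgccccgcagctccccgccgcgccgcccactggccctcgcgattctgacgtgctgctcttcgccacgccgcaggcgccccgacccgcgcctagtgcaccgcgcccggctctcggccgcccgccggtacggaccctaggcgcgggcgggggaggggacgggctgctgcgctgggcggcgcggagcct
Cdk4: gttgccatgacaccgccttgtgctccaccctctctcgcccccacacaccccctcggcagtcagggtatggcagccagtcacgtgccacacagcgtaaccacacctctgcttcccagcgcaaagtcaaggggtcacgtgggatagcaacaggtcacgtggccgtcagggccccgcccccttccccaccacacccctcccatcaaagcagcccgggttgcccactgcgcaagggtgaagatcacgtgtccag
Mcm2: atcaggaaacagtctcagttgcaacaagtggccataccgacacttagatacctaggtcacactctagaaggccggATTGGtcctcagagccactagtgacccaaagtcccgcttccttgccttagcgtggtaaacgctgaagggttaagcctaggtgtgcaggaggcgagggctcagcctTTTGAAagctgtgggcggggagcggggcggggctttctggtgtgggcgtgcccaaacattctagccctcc
Ccnd3: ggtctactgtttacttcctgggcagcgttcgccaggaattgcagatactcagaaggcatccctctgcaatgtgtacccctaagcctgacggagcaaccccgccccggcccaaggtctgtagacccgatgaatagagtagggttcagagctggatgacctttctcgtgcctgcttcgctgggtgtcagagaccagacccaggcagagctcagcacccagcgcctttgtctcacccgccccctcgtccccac
Mcm6: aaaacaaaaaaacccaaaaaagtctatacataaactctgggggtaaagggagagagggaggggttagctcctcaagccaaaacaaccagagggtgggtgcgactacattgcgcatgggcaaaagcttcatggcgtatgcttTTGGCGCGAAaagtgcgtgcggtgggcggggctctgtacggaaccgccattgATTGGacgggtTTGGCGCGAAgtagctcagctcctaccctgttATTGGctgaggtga
Mki67: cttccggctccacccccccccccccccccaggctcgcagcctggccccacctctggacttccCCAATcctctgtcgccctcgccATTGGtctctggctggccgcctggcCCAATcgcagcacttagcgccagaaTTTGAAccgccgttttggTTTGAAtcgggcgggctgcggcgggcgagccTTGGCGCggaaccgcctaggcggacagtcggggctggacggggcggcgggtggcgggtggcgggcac
Top2a: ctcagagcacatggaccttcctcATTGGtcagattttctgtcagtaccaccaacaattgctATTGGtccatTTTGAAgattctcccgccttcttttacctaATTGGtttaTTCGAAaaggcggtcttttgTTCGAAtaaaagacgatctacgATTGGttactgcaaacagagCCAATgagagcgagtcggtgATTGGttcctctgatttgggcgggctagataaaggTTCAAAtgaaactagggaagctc
Cdk1: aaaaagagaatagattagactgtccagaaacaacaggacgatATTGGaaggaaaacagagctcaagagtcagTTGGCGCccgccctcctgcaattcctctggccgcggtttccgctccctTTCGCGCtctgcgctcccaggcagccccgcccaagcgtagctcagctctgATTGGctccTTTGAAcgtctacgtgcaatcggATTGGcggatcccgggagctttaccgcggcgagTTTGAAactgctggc
Uhrf1: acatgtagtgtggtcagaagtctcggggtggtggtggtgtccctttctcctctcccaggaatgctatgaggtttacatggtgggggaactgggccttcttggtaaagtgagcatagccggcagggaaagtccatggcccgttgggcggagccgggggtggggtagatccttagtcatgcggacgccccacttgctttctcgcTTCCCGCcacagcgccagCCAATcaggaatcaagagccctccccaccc

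Some members share exon bases with other genes in GENCODE M21 (GRCm38), and without knowledge of strand the reads of such genes cannot be told apart. Among the called members, Ccnd1 shares 23.4% of its exon bases with LTO1 on the opposite strand, and Cdk4 shares 19.7% with Tspan31. LTO1 had means of 5.86 (Control) and 6.54 RPKM (OIR), and Tspan31 at 39.8 and 38.5 RPKM, and neither passed (limma adjusted p 0.293 and 0.661). Gins2 shares 67.3% with Gse1, which rose from 13.5 to 16.8 RPKM (limma adjusted p 0.0372), so the Gins2 values are uncertain. Ccne2 shares 17.4% with Ints8 and Ccna2 12.5% with Exosc9. Ints8 fell from 8.28 to 6.78 RPKM (limma adjusted p 0.0428), and Exosc9 did not pass (0.955). Cdc20 shares 2.84% with Elovl1, which rose from 3.04 to 4.47 RPKM (limma adjusted p 0.0157). Mki67, Uhrf1, Mcm2, Mcm3, Mcm6, E2f1, Cdk1, Ccnb2 and Tpx2 share no exon bases with another gene in this annotation.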

How the data were processed

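RNA of 6 retina libraries, 3 Control and 3 OIR, was analysed. Per the file headers each deposited table holds 1 value per gene symbol and library. The values behave as RPKM, reads divided by gene length and library total, made by the authors. Per the submitters' processing notes, TopHat2 2.0.12 and Bowtie2 2.0.6 were used, with no role stated. For the build, annotation, counter and strand, nothing is given in the sources used here, and the library protocol in the labels describes another species.

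Library totals were recovered from the steps of low values and 160 matching GENCODE M21 transcript lengths. Reads are for the smallest gene length that made all 6 values whole within 0.002 of a read, which succeeded for 99.978% of 17953 genes. The values are not counts, so limma 3.58.1 (R 4.3.3, trend and robust) on log2(value + 1) was the main test, two-sided, with group as the only term and Benjamini-Hochberg adjustment over 12112 genes. Such fold changes understate the change of low genes. Members under that minimum were tested by limma-voom on the recovered reads (at least 10 in 3 libraries, 15038 genes), an alternative to the main test. Both were run on simulated reads with the same spread set for all genes and no lens-rich library. Those reads do not test members as uneven among Controls as Mki67 and Top2a. Alternatives were other scaling, pseudocount and filters, a lens covariate, a replicate block, and leaving out libraries.

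The members, lists and tests were chosen with earlier results of these data known. The rule names all 41 members, up to 4 genes per further pathway list with the smallest limma adjusted p, and promoters of up to 6 called members by the same order. Anln, Chaf1b, E2f8, Kif18b, Kif2c, Pbk, Prc1 and Ube2c, the pathway genes called by limma-voom alone, and the promoters of Mki67, Top2a, Cdk1 and Uhrf1 are additions made after their values were seen. Ccna2, Ccnd1, Ccnd2, Ccne2, Foxm1, Gins2, Mcm4, Tpx2 and Aurkb had no promoter entry.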

Additional observations from a re-analysis of the deposited data

How the results depend on the processing

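The count of members higher by limma was 6 of 20 tested, and it was 10 of 41 with no filter. It was 14 of 39 with a filter of 0.1 RPKM in 3 libraries and 15 of 40 by limma-voom. It stayed within 1.5 times of 6 with median-of-ratios scaling, lens reads removed from the total, a pseudocount of 0.1, a covariate for lens level, or leaving out both lens-rich libraries. Leaving out 1 library gave 1 to 6 by limma and 3 to 19 by limma-voom. The limma-voom count was 15, and 23 without both lens-rich libraries. No member was called lower under any alternative run. With no filter, limma lost Ccnd3 (adjusted p 0.0614), E2f1 (0.0506) and Mcm6 (0.0944). Mcm6 was also lost with the 0.1 filter (0.0559), lens reads removed (0.0632) and the lens covariate (0.0789).

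Among the 105 further pathway genes, limma called 6 higher and 2 lower. The higher count was 12 with the 0.1 filter or limma-voom and 11 without both lens-rich libraries. The lower count was 0 with no filter, 1 with the 0.1 filter and 1 with the lens covariate. Leaving out 1 library gave 1 to 10 higher and 0 to 2 lower by limma, and 1 to 20 higher and 0 to 2 lower by limma-voom. By limma-voom 23 were higher without both lens-rich libraries. Over all genes limma called 1407 higher and 875 lower, with 529 lower under no filter and 1943 lower without both lens-rich libraries. Leaving out 1 library gave 513 to 1754 higher and 212 to 1293 lower. Higher genes made up 61.7% of all calls, and 49.4% with median-of-ratios scaling.

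The sign of the log2 fold change turned only in members that did not pass. Leaving out 1 library, it ran from -0.048 to 0.041 for Ccne2, -0.036 to 0.105 for Pcna, -0.013 to 0.072 for Rrm1, -0.315 to 0.440 for Bub1b and -0.027 to 0.182 for Plk1 by limma. By limma-voom these ranges were -0.081 to 0.069, -0.036 to 0.107, -0.016 to 0.080, -0.378 to 0.628 and -0.038 to 0.247. Using the lens level as covariate, limma gave -0.0021 for Pcna and -0.032 for Bub1b. For Rrm1 it gave -0.014 with median-of-ratios scaling, -0.0057 with lens reads removed and -0.013 without the lens-rich pair, and limma-voom gave -0.017, -0.0067 and -0.016. Without that pair Bub1b was at -0.23 by limma and -0.28 by limma-voom, and Aurka at 0.030 by limma-voom. The cause of these changes was not tested.

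With the replicate number as a block, limma called 7 members higher, Ccnd2 being the addition at an adjusted p of 0.0124, and 5 pathway genes. The deviations of same-numbered libraries correlated at 0.22, -0.44 and -0.41, and no library correlated best with its own number. The numbers are therefore not taken to pair the samples. The alternatives of limma-voom, such as leaving out libraries, were chosen after seeing the data. Reads limit most the 6 members with fewer than 10 reads in at least 1 library, which are the called Mki67, Top2a and Uhrf1 and the uncalled Aurkb, Bub1 and Birc5.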
